A study of Mus musculus with 12 samples.

Results

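Solute carriers are the genes whose symbols begin with Slc and a family number. Members were chosen by their symbols and selected on their measured level, 1 FPKM or more in 3 or more of the 12 libraries. FPKM is a fragment count scaled by the length of the gene model and by library depth, so levels can be set beside each other between genes. The mitochondrial Slc25 family and 12 carriers of glucose, lactate, iron, arginine, cystine and fatty acids were left out. The rule found 123 of 323 candidate symbols, in a table of 31801 entries of which 10277 symbols passed the same filter. The rule itself uses FPKM levels and no comparison between treatments, but it was set with earlier results of these data known. The RNA came from RAW264.7, a macrophage-like mouse line with the genotype WT in the labels, as 4 groups of 3 libraries. The groups were LPS (lipopolysaccharide, a bacterial cell wall component, 50 ng/ml) with an anti-CD36 antibody (dilution 1 in 100), LPS alone, the antibody alone and untreated cells. CD36 is a scavenger and fatty acid receptor of the macrophage surface. The labels name no isotype control and no treatment time, and do not state that libraries of 1 group are separate cultures, so a p-value here reflects the spread among these libraries and no more.

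Solute carriers move amino acids, ions, sugars, vitamins, metals and other small molecules across membranes, either down a gradient or coupled to sodium, protons or an exchanged molecule. Macrophages take up amino acids, choline and osmolytes through carriers of the cell surface. Endosomes and lysosomes hold others, which return peptides, amino acids and sialic acid from digested material to the cytosol. In the ER and Golgi a further group supplies nucleotide sugars to glycosyl transferases. LPS is sensed by the receptor TLR4, which changes the expression of many macrophage genes.

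A symbol does not say which membrane a protein sits in. By general knowledge of the families, 54 of the 123 work mainly at the plasma membrane, 30 in the ER or Golgi, 10 in lysosomes, 5 in endosomes or vesicles and 2 in mitochondria, and for 18 the place is not settled. The other 4 carry an Slc symbol but transport nothing. These are Slc9a3r1 and Slc9a3r2, scaffolds that bind sodium-proton exchangers, and Slc4a1ap and Slc7a6os. The set is therefore called the expressed solute carriers here, without a membrane in its name. All 123 were sorted by substrate into 13 classes, with the 4 other proteins as a class of their own.

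Of the 123, 111 reached 1 FPKM in all 12 libraries and 12 in fewer. Slc7a7 and Slc39a4 reached it in the 6 LPS-treated libraries only. Slc9b2, Slc16a7 and Slc26a6 reached it without LPS only, in 6, 5 and 4 libraries. Such a member entered the set through the groups in which it is high, so its difference cannot count in favour of any pattern. Nearest the threshold, the third highest value was 1.10 FPKM for Slc66a1, 1.27 for Slc16a7 and 1.30 for Slc26a6. Just outside it was 0.981 FPKM for Slc22a17, 0.973 for Slc26a11 and 0.921 for Slc16a4. Of the 200 candidates that failed, 70 were listed at 0 in every library and 5 reached 1 FPKM in 1 or 2 libraries.

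Recovered depths ran from 30070450 to 54137810 fragments per library, and at the lowest depth 1 FPKM stood for 60.1 fragments on a gene model of 2000 bases. Of 9 macrophage markers, 8 passed the filter, led by Lyz2, while Mertk averaged 0.0188 FPKM. Markers of NK cells and epithelium were at 0 in all libraries. Those of B cells, neutrophils, fibroblasts and endothelium summed to at most 0.694 FPKM in any library. Among 4 T cell markers Cd5 alone passed, and their summed level was 2.20 to 2.69 FPKM in LPS+anti-CD36 cells, 1.72 to 1.80 in LPS cells, 0.320 to 0.380 in anti-CD36 cells and 0.135 to 0.292 in untreated cells, with Cd2 at 0 and Cd3e and Cd3g at or near 0.

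The level of the 123 genes was spread over more than 2 orders of magnitude. Their means over the 12 libraries ran from 0.780 FPKM for Slc16a7, a monocarboxylate carrier, to 170.2 FPKM for Slc6a12, the betaine and GABA carrier, with a median of 7.10 FPKM. In all, 51 genes averaged at least 10 FPKM and 7 at least 50 FPKM. The 10 highest held 39.9% of the summed level and Slc6a12 alone 10.6%. After Slc6a12 the order was Slc1a5 (glutamine and other neutral amino acids) at 80.6 FPKM, Slc39a1 (zinc) at 62.0, Slc3a2 (the heavy chain that carries several amino acid exchangers to the surface) at 57.9, Slc38a2 (neutral amino acids with sodium) at 57.0, Slc7a5 (large neutral amino acids) at 55.2 and Slc6a6 (taurine) at 51.7. The means from Slc39a1 to Slc6a6 lie closer together than the 12 libraries of any of them are spread. Summed over the 123 genes, the level was 1565 ± 23.1 FPKM in LPS+anti-CD36 cells, 1585 ± 57.0 in LPS cells, 1650 ± 39.0 in anti-CD36 cells and 1624 ± 27.2 in untreated cells (SD, n = 3 each).

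LPS moved carriers in both directions. Of the 123 genes, 30 were higher and 41 lower in LPS cells than in untreated cells (limma on log2(FPKM + 1), adjusted p under 0.05), which is 57.7%. Over all 10276 genes tested in this comparison the share was 49.8%, with 16.6% higher and 33.1% lower. Among the 118 genes that reached 1 FPKM both with and without LPS, 28 were higher and 38 lower. A change of at least 1 on the log2(FPKM + 1) scale was reached by 9 of the higher and 6 of the lower calls. Adding 1 FPKM shrinks changes on this scale, most at low levels, so ratios of mean FPKM given below do not equal the log2 changes. The median log2 change was -0.06 for the carriers and -0.14 for all genes, and 67 of the 123 lay above the all-gene median. All 41 lower calls lay below that median too, but a fall must be sizeable to pass the test. The call rule thus nearly fixed this in advance, and it carries no weight. With libraries scaled by median-of-ratios factors, which set the all-gene median near 0, the split was 40 higher and 32 lower, and over all genes 22.9% were higher and 21.7% lower. No carrier called in any comparison changed sign under any alternative scaling. Of the 71 calls 18 were lost in at least 1 of 23 alternatives. Among those named below, Slc39a14 lost the call in 11, Slc35a1, Slc35c2 and Slc39a11 each in 7, Slc26a6 in 7 of the 22 that gave it a value, Slc2a9 and Slc39a3 in 6, Slc30a7, Slc4a2 and Slc6a13 in 5, Slc12a2, Slc12a7, Slc29a3 and Slc9a8 in 4 and Slc38a7 in 3. These are bulk libraries, in which fewer cells with a transcript and less of it per cell cannot be told apart.

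**Figure D1:**
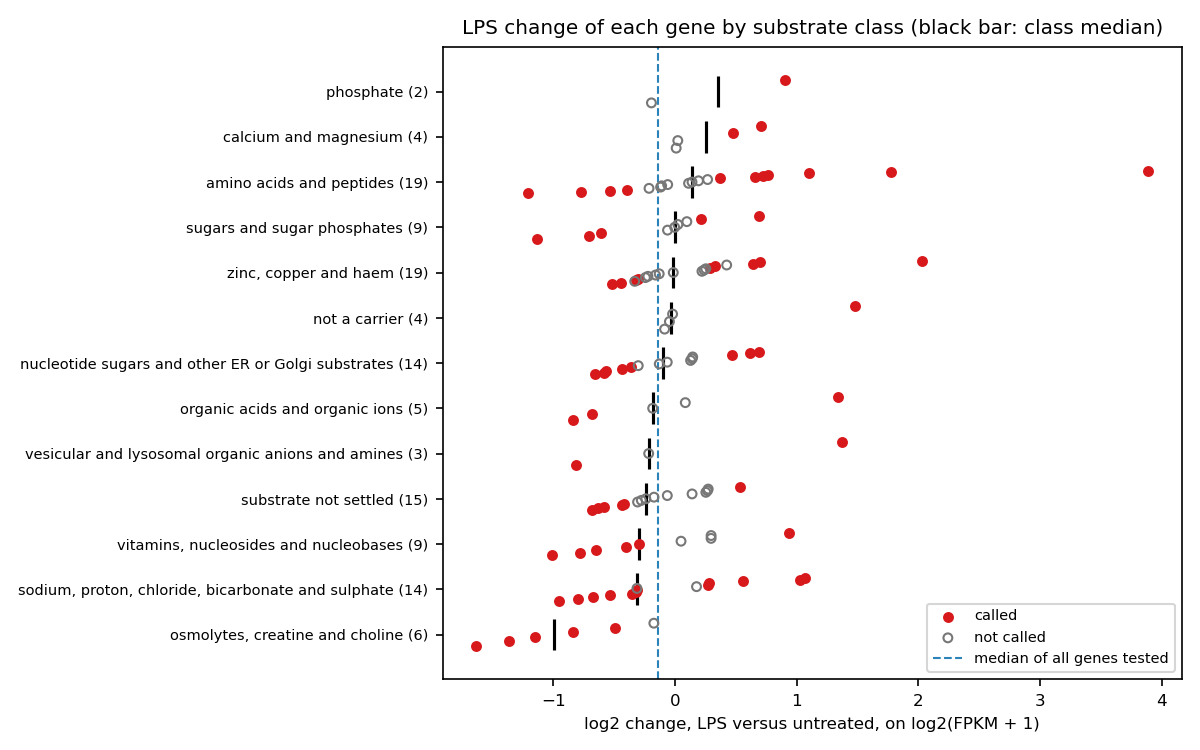
Log2 change of each of the 123 genes between LPS and untreated cells, on log2(FPKM + 1), in rows by substrate class with the number of genes in brackets. Filled points passed the test, black bars are class medians and the dashed line is the median of all genes tested, -0.14. The osmolyte, creatine and choline row sits lowest, with a median of -0.996, and Slc15a3 stands farthest right at 3.89.

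The 6 carriers of osmolytes, creatine and choline were the class with the lowest median. LPS lowered 5 of the 6, with a class median log2 change of -0.996, and in antibody-treated cells LPS lowered all 6, with a median of -1.24. Their summed level was 173, 159 and 166 FPKM in LPS+anti-CD36 cells, 224, 195 and 191 in LPS cells, 393, 334 and 368 in anti-CD36 cells and 380.2, 369.7 and 366 in untreated cells. None of the 6 LPS-treated sums reached any of the other 6, and Slc6a12 held the largest part of each sum. Osmolytes are small organic molecules that cells accumulate against water loss, and the genes for their uptake are textbook targets of the tonicity-responsive factor NFAT5.

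Slc6a12 had 107, 96.4 and 101 FPKM in LPS+anti-CD36 cells, 148, 111 and 103 in LPS cells, 283, 202 and 244 in anti-CD36 cells and 251, 216 and 181 in untreated cells. Every library with LPS was below every library without it. LPS lowered the gene by 0.84 ± 0.16 (SE; adjusted p = 0.0012) on the log2 scale, and its mean FPKM was 0.56 of the untreated mean. Slc5a3, which takes up myo-inositol with sodium, fell furthest among all 123. Slc5a3 measured 4.51, 4.72 and 5.93 FPKM in LPS+anti-CD36 cells, 8.18, 13.8 and 18.7 in LPS cells, 18.6, 27.7 and 22.7 in anti-CD36 cells and 30.3, 38.4 and 64.03 in untreated cells. The change under LPS was -1.63 ± 0.29 (SE; adjusted p = 6.4e-04), and relative to the all-gene median -1.49. The LPS and untreated libraries did not overlap, though both groups were widely spread. Slc6a6 stood at 39.99, 36.9 and 37.2 FPKM in LPS+anti-CD36 cells, 46.3, 46.97 and 45.5 in LPS cells, 52.99, 60.04 and 57.5 in anti-CD36 cells and 57.9, 69.97 and 69.7 in untreated cells. For this taurine carrier the LPS change was smaller, -0.50 ± 0.09 (SE; adjusted p = 5.9e-04), again with no overlap.

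Slc44a1 gave 8.57, 8.902 and 9.27 FPKM in LPS+anti-CD36 cells, 8.62, 11.5 and 11.7 in LPS cells, 19.5, 25.1 and 23.3 in anti-CD36 cells and 24.6, 27.6 and 34.9 in untreated cells. Slc44a1 is a choline carrier, and its LPS change of -1.37 ± 0.14 (SE; adjusted p = 9.2e-06) was without overlap. Its relative Slc44a2 did not pass the test, at -0.17 (adjusted p = 0.091), but did so in antibody-treated cells, at -0.26 (adjusted p = 0.018). Slc6a8 had 2.29, 2.08 and 1.97 FPKM in LPS+anti-CD36 cells, 2.49, 1.72 and 1.98 in LPS cells, 6.92, 6.13 and 6.83 in anti-CD36 cells and 5.995, 6.08 and 5.304 in untreated cells. The creatine carrier thus kept 0.356 of its untreated mean FPKM under LPS. On log2(FPKM + 1) the change was -1.15 ± 0.10 (SE; adjusted p = 1.5e-06), with all 6 LPS-treated libraries below the rest.

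**Figure D2:**
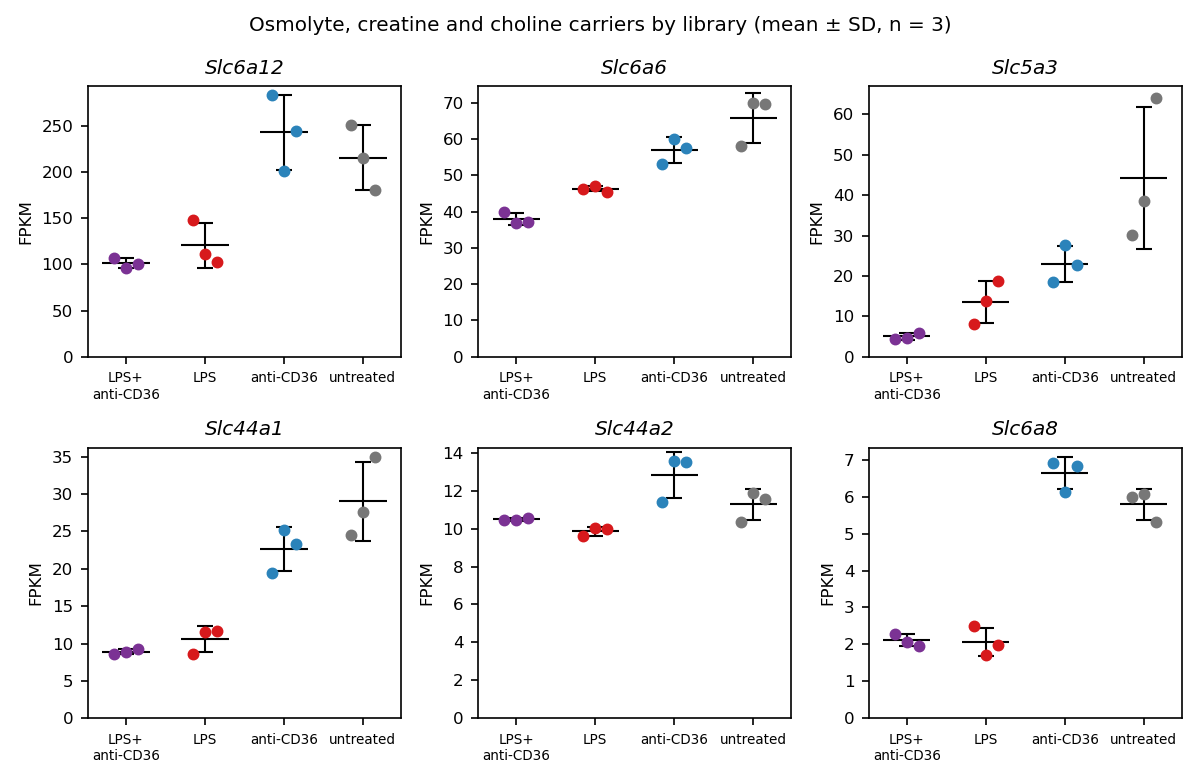
FPKM of the 6 osmolyte, creatine and choline carriers in each of the 12 libraries, by group. Points are libraries and bars are the mean ± SD of 3. In Slc6a12, Slc6a6, Slc44a1 and Slc6a8 every LPS-treated library lies below every library without LPS.

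The promoters of the highest and of the most lowered carrier of this class are shown because LPS lowered both genes with and without the antibody. Both are RefSeq windows of 300 bases on GRCm38.p6, from 250 bases before to 50 after the start. Slc6a12 has 5 annotated starts, of which the first in genome order is given (chr6:121342324-121342623, plus strand), and Slc5a3 has 1 (chr16:92058072-92058371, plus strand). Capitals mark TGGAAA, the core of the tonicity element, searched on both strands.
Slc6a12: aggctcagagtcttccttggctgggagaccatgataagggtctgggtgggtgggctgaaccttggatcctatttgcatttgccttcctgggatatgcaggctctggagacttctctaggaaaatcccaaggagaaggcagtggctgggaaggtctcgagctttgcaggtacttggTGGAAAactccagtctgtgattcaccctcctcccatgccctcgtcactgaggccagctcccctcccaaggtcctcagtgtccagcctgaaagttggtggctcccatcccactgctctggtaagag
Slc5a3: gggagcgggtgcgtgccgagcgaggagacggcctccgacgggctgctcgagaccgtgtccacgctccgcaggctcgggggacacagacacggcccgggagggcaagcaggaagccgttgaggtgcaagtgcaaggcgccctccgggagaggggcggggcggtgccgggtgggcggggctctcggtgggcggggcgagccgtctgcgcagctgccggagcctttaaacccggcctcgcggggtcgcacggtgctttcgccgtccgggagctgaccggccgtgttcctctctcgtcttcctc
TGGAAA begins 75 bases before the start in the Slc6a12 window, and the letters do not occur in the Slc5a3 window or in the other 4 windows of Slc6a12. The same letters were in 21.4% of all 32851 promoter windows and in 22 of 134 windows of the 93 carriers that have one (16.4%). A match of this length is a description of the sequence and no evidence of binding.

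Carriers of amino acids and peptides were split. Of 19 genes LPS raised 7 and lowered 4, with a median log2 change of 0.14. Their summed level was 470.3, 453 and 442 FPKM in LPS+anti-CD36 cells, 463, 428 and 409 in LPS cells, 363, 353 and 358 in anti-CD36 cells and 317, 342 and 335 in untreated cells. Sums with LPS lay above all sums without it. Such a sum follows the genes with the largest rises in FPKM, here Slc15a3, Slc3a2 and Slc7a5, so it shows no rise of the class as a whole.

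Slc15a3 (GRCm38 chr19:10839727-10859362, plus strand) exports di- and tripeptides, bacterial muramyl dipeptide among them, from endolysosomes. Slc15a3 had 71.5, 63.5 and 61.3 FPKM in LPS+anti-CD36 cells, 50.1, 44.6 and 40.04 in LPS cells, 3.14, 2.95 and 2.8998 in anti-CD36 cells and 2.203, 2.29 and 1.79 in untreated cells. The gene had the highest rise of the set, 3.89 ± 0.10 (SE; adjusted p = 5.5e-11), a 21.5-fold difference of means. Its exons share 28.1% of their bases with Tmem132a on the other strand, and the sources used here do not state whether counting used strand, so reads from that overlap cannot be assigned. Tmem132a itself had 3.45, 3.75 and 4.38 FPKM in LPS+anti-CD36 cells, 2.54, 2.55 and 2.52 in LPS cells, 0.457, 0.387 and 0.347 in anti-CD36 cells and 0.317, 0.329 and 0.426 in untreated cells, below Slc15a3 in every library. Its relative Slc15a4, a lysosomal carrier of histidine and peptides, did not pass, at -0.21 (adjusted p = 0.066).

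Slc1a4 exchanges alanine, serine and cysteine across the plasma membrane. Slc1a4 measured 7.84, 8.08 and 7.31 FPKM in LPS+anti-CD36 cells, 9.67, 9.18 and 8.99 in LPS cells, 2.45, 2.71 and 2.57 in anti-CD36 cells and 1.86, 2.14 and 2.01 in untreated cells. The 4 groups did not overlap one another, and LPS raised the gene by 1.78 ± 0.07 on log2(FPKM + 1) (SE; adjusted p = 2.5e-09). Its mean FPKM differed 4.63-fold. Slc3a2 stood at 90.05, 86.7 and 82.4 FPKM in LPS+anti-CD36 cells, 81.1, 66.7 and 61.4 in LPS cells, 46.5, 41.9 and 42.6 in anti-CD36 cells and 33.2, 32.8 and 29.6 in untreated cells. As the shared heavy chain of the Slc7 exchangers it rose by 1.10 ± 0.10 (SE; adjusted p = 3.5e-06) with no overlap. Slc7a5 gave 68.8, 66.9 and 63.3 FPKM in LPS+anti-CD36 cells, 79.5, 61.1 and 53.4 in LPS cells, 54.8, 45.1 and 49.2 in anti-CD36 cells and 40.5, 43.98 and 35.9 in untreated cells. Its main light chain for leucine and other large amino acids was raised by 0.66 ± 0.13 (SE; adjusted p = 0.0016), and the LPS and untreated libraries did not overlap. Slc7a7, the light chain that exports cationic amino acids, was low, and Slc7a7 had 1.68, 1.45 and 1.28 FPKM in LPS cells, against 0.323, 0.602 and 0.451 FPKM in untreated cells, a change of 0.76 ± 0.10 (SE; adjusted p = 7.7e-05). That gene entered the set through LPS-treated libraries only. Slc7a6, a like light chain, did not pass (-0.12, adjusted p = 0.37).

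Slc6a9 had 2.1002, 1.89 and 1.81 FPKM in LPS+anti-CD36 cells, 2.94, 2.56 and 2.46 in LPS cells, 1.41, 1.41 and 1.29 in anti-CD36 cells and 1.14, 1.33 and 1.16 in untreated cells. This glycine carrier rose by 0.72 ± 0.08 (SE; adjusted p = 1.2e-05), with all 6 LPS-treated libraries above the rest. Of its exon bases 30.2% overlap the antisense gene Ccdc24, which reached at most 0.0707 FPKM in any library. Slc43a2 measured 1.41, 1.44 and 1.36 FPKM in LPS+anti-CD36 cells, 2.17, 2.09 and 2.01 in LPS cells, 6.17, 6.69 and 6.54 in anti-CD36 cells and 5.65, 6.603 and 6.17 in untreated cells. Slc43a2, which lets large neutral amino acids pass without sodium, fell by 1.21 on the log2 scale (SE 0.07, adjusted p = 6.8e-08). Its mean FPKM was 0.34 of the untreated mean. The other lowered genes were Slc6a13 for GABA and taurine (-0.78, with overlap), the lysosomal proton-coupled Slc36a1 (-0.53) and the aromatic amino acid carrier Slc16a10 (-0.39).

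Slc1a5 had 95.99, 91.9 and 87.1 FPKM in LPS+anti-CD36 cells, 88.7, 76.05 and 68.9 in LPS cells, 85.2, 81.3 and 88.9 in anti-CD36 cells and 65.5, 72.6 and 65.1 in untreated cells. The glutamine carrier, highest of the class, did not pass the test between LPS and untreated cells (0.19, adjusted p = 0.12), and those groups overlapped. Slc38a2 stood at 38.7, 41.95 and 46.1 FPKM in LPS+anti-CD36 cells, 50.2, 67.7 and 75.6 in LPS cells, 46.8, 61.8 and 53.4 in anti-CD36 cells and 54.2, 65.1 and 82.8 in untreated cells. For this sodium-coupled carrier of alanine and glutamine the groups also overlapped, and the change was -0.06 ± 0.18 (SE; adjusted p = 0.8). The lysosomal glutamine carrier Slc38a7 rose by 0.37, while Slc38a9, the lysosomal arginine sensor, and Slc66a1 did not pass (0.14 and 0.11). Of 10 genes of lysosomal amino acid sensing, 9 were tested, of which Sesn2 (2.55) and Rraga (0.42) rose. Rragc fell (-0.23) at an adjusted p of 0.0496 in limma, just under the threshold. Sesn2 is a leucine sensor and a target of the stress factor ATF4.

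**Figure D3:**
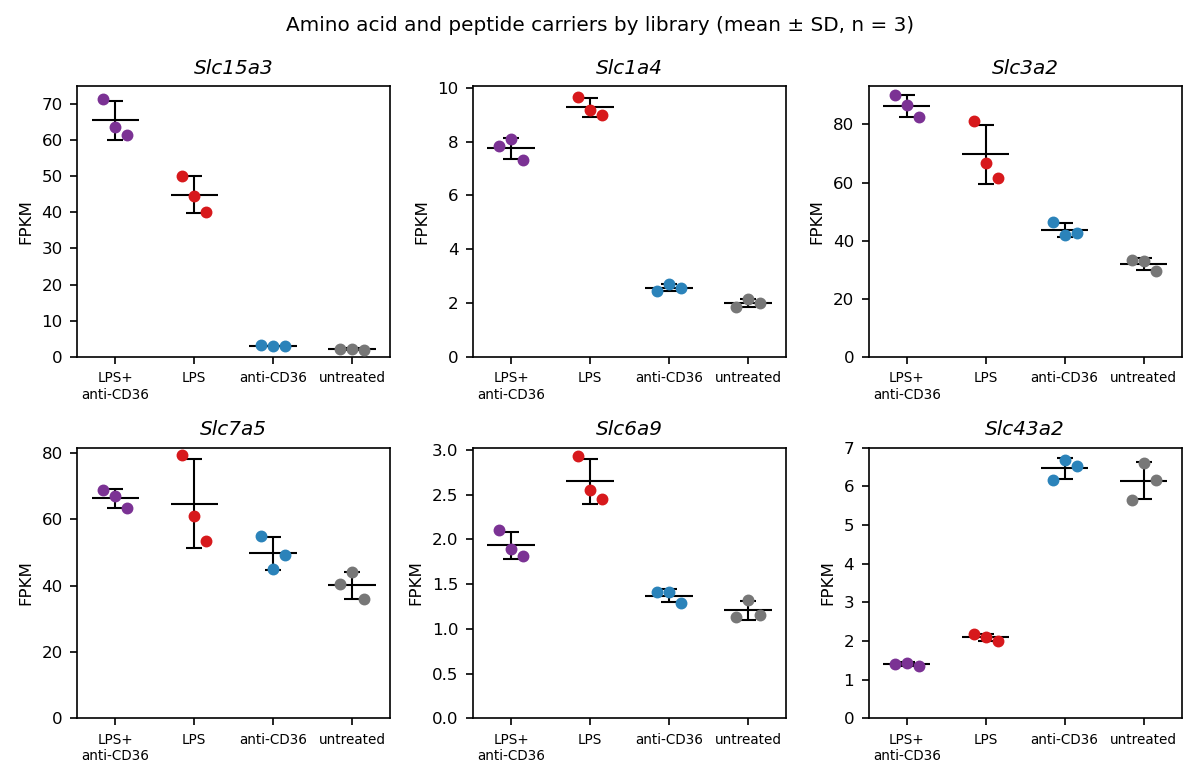
FPKM of 6 amino acid and peptide carriers in each of the 12 libraries, by group. Points are libraries and bars are the mean ± SD of 3. Slc15a3, Slc1a4, Slc3a2 and Slc6a9 are higher in every LPS-treated library than in any other, Slc43a2 is lower, and Slc1a4 and Slc6a9 sit lower in LPS+anti-CD36 than in LPS cells.

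The promoter of Slc1a4 is given because in the main fit this gene alone was called for a difference in LPS change with and without the antibody. That call was kept in 8 alternative fits and lost in 14. The RefSeq window lies at chr11:20332664-20332963 on the minus strand of GRCm38.p6. Capitals mark TTGCATCA, which on the other strand reads as a match of TGATGNAA, the composite element bound by ATF4 with a C/EBP factor.
Slc1a4: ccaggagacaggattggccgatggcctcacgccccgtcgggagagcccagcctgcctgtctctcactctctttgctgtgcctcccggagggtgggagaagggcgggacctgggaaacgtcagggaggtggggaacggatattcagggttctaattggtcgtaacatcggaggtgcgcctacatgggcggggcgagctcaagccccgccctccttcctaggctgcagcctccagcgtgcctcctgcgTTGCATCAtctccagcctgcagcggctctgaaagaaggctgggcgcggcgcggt
The match begins 4 bases before the start. TGATGNAA, searched on both strands, occurred in 3.97% of all windows and in 4 of the 134 carrier windows (2.99%). These belong to Slc1a4, Slc7a7 with 2 windows and Slc50a1, of which LPS raised the first pair and Slc50a1 had a change of 0.00. Of the pair, Slc7a7 entered the set through LPS-treated libraries only. A kappa-B-like motif was in 64.9% of carrier windows and 50.8% of all windows, and an interferon response element-like motif in 0.746% of carrier windows and 3.44% of all windows.

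Among 14 carriers of sodium, protons, chloride, bicarbonate and sulphate LPS raised 5 and lowered 7, with a median of -0.32. The potassium-chloride carriers Slc12a4 and Slc12a7, which move the salt out of the cell, rose, while Slc12a2, which brings sodium, potassium and chloride in, fell. Slc12a4 had 24.6, 21.9 and 21.2 FPKM in LPS+anti-CD36 cells, 22.1, 19.1 and 16.7 in LPS cells, 9.41, 9.36 and 9.02 in anti-CD36 cells and 8.17, 9.25 and 8.47 in untreated cells. The rise of Slc12a4 was 1.07 ± 0.10 (SE; adjusted p = 3.4e-06), with every LPS-treated library above the rest. Slc12a7 rose by 0.28 (adjusted p = 0.015). Slc12a2 measured 2.87, 2.79 and 2.91 FPKM in LPS+anti-CD36 cells, 2.72, 3.84 and 4.38 in LPS cells, 3.505, 4.89 and 4.46 in anti-CD36 cells and 4.38, 5.801 and 7.03 in untreated cells. Its change was -0.53 ± 0.16 (SE; adjusted p = 0.017), without overlap between LPS and untreated libraries. Of 6 kinases that regulate these carriers, Wnk1 and Oxsr1 passed the filter and neither was called.

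Slc4a7 had 12.2, 13.2 and 13.9 FPKM in LPS+anti-CD36 cells, 13.2, 19.9 and 22.4 in LPS cells, 4.88, 7.03 and 5.12 in anti-CD36 cells and 6.28, 7.97 and 11.5 in untreated cells. Slc4a7 takes up sodium with bicarbonate, and it rose by 1.03 ± 0.21 (SE; adjusted p = 0.0018) without overlap. Slc9b2 measured 0.844, 0.542 and 0.662 FPKM in LPS+anti-CD36 cells, 0.686, 0.912 and 0.65 in LPS cells, 2.81, 2.84 and 3.03 in anti-CD36 cells and 2.15, 2.06 and 1.91 in untreated cells. Slc9b2, a sodium-proton exchanger, was under 1 FPKM in every LPS-treated library, at -0.80 ± 0.09 (SE; adjusted p = 1.5e-05). It thus entered the set through libraries without LPS only. The sulphate carrier Slc26a2 (-0.96), the chloride-bicarbonate exchanger Slc4a2 (-0.32) and Slc26a6 (-0.32), which entered the set through libraries without LPS only, fell, and the Golgi exchanger Slc9a8 rose (0.27).

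The 19 carriers of zinc, copper and haem had 5 higher and 4 lower genes and a median of -0.01. Slc31a2, which governs copper release from endosomes, led. Slc31a2 had 20.1, 22.7 and 23.4 FPKM in LPS+anti-CD36 cells, 19.9, 21.1 and 20.3 in LPS cells, 3.35, 4.52 and 4.91 in anti-CD36 cells and 3.67, 4.302 and 4.81 in untreated cells. Its rise was 2.03 ± 0.12 (SE; adjusted p = 6.2e-08), with a 4.79-fold difference of mean FPKM. All LPS-treated libraries stayed above the others. Slc31a1 measured 19.3, 18.9 and 18.9 FPKM in LPS+anti-CD36 cells, 19.2, 21.7 and 22.8 in LPS cells, 16.9, 18.9 and 18.5 in anti-CD36 cells and 19.5, 20.8 and 24.2 in untreated cells. The copper uptake carrier of the surface did not pass, at -0.01 ± 0.09 (SE; adjusted p = 0.91), and its groups overlapped. Slc39a1 stood at 83.7, 77.5 and 68.98 FPKM in LPS+anti-CD36 cells, 88.9, 66.05 and 59.8 in LPS cells, 61.2, 46.7 and 54.6 in anti-CD36 cells and 52.2, 45.99 and 37.9 in untreated cells. Slc39a1, the zinc importer with the highest level, rose by 0.64 ± 0.16 (SE; adjusted p = 0.0062), and LPS replicate 1 was highest of the 12. Slc39a6 gave 18.9, 18.4 and 19.2 FPKM in LPS+anti-CD36 cells, 17.7, 19.8 and 20.2 in LPS cells, 17.1, 22.97 and 20.9 in anti-CD36 cells and 18.9, 22.8 and 26.7 in untreated cells. The zinc importer Slc39a6 did not pass, at -0.22 ± 0.13 (SE; adjusted p = 0.17). Slc39a4 (0.70), Slc39a14 (0.29) and Slc30a7 (0.33) rose, and the exporters Slc30a5 (-0.52) and Slc30a1 (-0.45) fell with Slc39a3 (-0.30) and Slc39a11 (-0.32). Of these, Slc39a4 entered the set through LPS-treated libraries only. The haem carrier Slc48a1 did not pass (-0.33, adjusted p = 0.11). Of 4 genes of zinc control 3 were tested, and Mtf1 (0.36) and Mt2 (1.03) rose while Mt1 (-0.47, with overlap) fell. Mtf1 is the zinc-sensing factor and the others are metallothioneins, which bind zinc.

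Of 9 carriers of vitamins, nucleosides and nucleobases LPS raised 1 and lowered 5, with a median of -0.30. Slc29a1 had 8.03, 7.502 and 6.65 FPKM in LPS+anti-CD36 cells, 7.05, 5.73 and 5.32 in LPS cells, 18.3, 14.5 and 15.7 in anti-CD36 cells and 13.5, 14.8 and 11.3 in untreated cells. This equilibrative nucleoside carrier fell in every LPS-treated library, with a log2 change of -1.01 ± 0.13 (SE; adjusted p = 3.6e-05). Its mean FPKM in LPS cells was 0.457 of the untreated mean. Slc29a2 measured 1.94, 2.42 and 2.47 FPKM in LPS+anti-CD36 cells, 1.45, 1.24 and 1.21 in LPS cells, 4.05, 3.17 and 2.44 in anti-CD36 cells and 3.05, 2.93 and 2.88 in untreated cells. The LPS change of the second nucleoside carrier was -0.78 ± 0.12 (SE; adjusted p = 2.5e-04), with no overlap between LPS and untreated cells. Slc5a6 for biotin and pantothenate (-0.65), the purine base carrier Slc43a3 (-0.40) and the lysosomal nucleoside carrier Slc29a3 (-0.30) fell as well. Slc19a2 stood at 15.9, 17.2 and 18.2 FPKM in LPS+anti-CD36 cells, 20.2, 23.2 and 26.6 in LPS cells, 6.89, 9.92 and 9.04 in anti-CD36 cells and 10.1, 11.6 and 13.6 in untreated cells. The thiamine carrier was the one that rose, by 0.93 ± 0.14 (SE; adjusted p = 1.8e-04). Slc19a1 gave 19.3, 18.5 and 17.9 FPKM in LPS+anti-CD36 cells, 21.5, 17.2 and 16.1 in LPS cells, 24.2, 19.3 and 20.2 in anti-CD36 cells and 18.03, 18.6 and 15.9 in untreated cells. For the folate carrier the groups overlapped, with a change of 0.05 ± 0.12 (SE; adjusted p = 0.75). Slc23a2 had 20.5, 19.996 and 19.5 FPKM in LPS+anti-CD36 cells, 27.4, 33.2 and 35.04 in LPS cells, 14.6, 20.2 and 17.2 in anti-CD36 cells and 22.4, 25.2 and 29.9 in untreated cells. The vitamin C carrier also overlapped between LPS and untreated cells, at 0.30 ± 0.13 (SE; adjusted p = 0.085).

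Sugar and sugar phosphate carriers numbered 9, with 2 higher, 3 lower and a median of 0.00. Slc37a2 had 6.41, 6.44 and 7.12 FPKM in LPS+anti-CD36 cells, 6.29, 6.35 and 5.57 in LPS cells, 13.6, 14.5 and 14.9 in anti-CD36 cells and 13.9, 14.9 and 14.7 in untreated cells. Slc37a2, a sugar phosphate carrier of the ER, fell by 1.13 (log2; SE 0.07, adjusted p = 1.7e-07) with narrow groups and no overlap. Slc2a6 measured 22.7, 20.04 and 21.2 FPKM in LPS+anti-CD36 cells, 20.7, 16.01 and 15.1 in LPS cells, 12.5, 9.92 and 11.5 in anti-CD36 cells and 10.4, 10.96 and 9.41 in untreated cells. This lysosomal sugar carrier rose by 0.69 ± 0.12 (SE; adjusted p = 4.6e-04). Slc50a1 stood at 31.3, 30.9 and 28.1 FPKM in LPS+anti-CD36 cells, 26.6, 19.5 and 17.9 in LPS cells, 35.9, 26.7 and 28.3 in anti-CD36 cells and 23.2, 21.9 and 18.4 in untreated cells. Slc50a1, a Golgi sugar carrier, overlapped between LPS and untreated cells, and its change was 0.00. Slc37a4 gave 7.995, 7.78 and 8.43 FPKM in LPS+anti-CD36 cells, 14.2, 11.3 and 11.02 in LPS cells, 13.04, 11.4 and 11.7 in anti-CD36 cells and 13.01, 11.4 and 9.51 in untreated cells. The glucose 6-phosphate carrier of the ER did not pass, at 0.10 ± 0.12 (SE; adjusted p = 0.52). Slc45a3 (-0.71) and Slc2a8 (-0.61) fell, and the urate carrier Slc2a9 rose (0.21).

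The 14 ER and Golgi carriers of nucleotide sugars and related substrates had 3 higher and 5 lower genes, with a median of -0.10. Slc35b1 had 46.3, 44.8 and 43.1 FPKM in LPS+anti-CD36 cells, 47.4, 42.5 and 39.4 in LPS cells, 41.2, 37.7 and 41.2 in anti-CD36 cells and 44.9, 40.02 and 32.5 in untreated cells. The ATP and ADP exchanger of the ER, highest of the class, did not pass (0.14, adjusted p = 0.31), and the groups overlapped. Slc35a4 measured 32.3, 29.7 and 30.7 FPKM in LPS+anti-CD36 cells, 32.9, 24.99 and 22.9 in LPS cells, 45.9, 40.9 and 42.3 in anti-CD36 cells and 41.3, 42.1 and 36.4 in untreated cells. Slc35a4 lay lower in all LPS-treated libraries, at -0.57 ± 0.12 (SE; adjusted p = 0.0019). Slc35c2 gave 18.5, 17.97 and 17.3 FPKM in LPS+anti-CD36 cells, 18.6, 15.5 and 13.5 in LPS cells, 30.4, 22.7 and 26.3 in anti-CD36 cells and 21.6, 21.9 and 18.1 in untreated cells. Its relative Slc35c2 passed at -0.36 ± 0.13 (SE; adjusted p = 0.035) although LPS replicate 1 overlapped the untreated libraries. Slc35d2 stood at 3.1998, 2.801 and 3.27 FPKM in LPS+anti-CD36 cells, 1.96, 2.14 and 2.26 in LPS cells, 0.998, 0.855 and 0.926 in anti-CD36 cells and 1.15, 0.958 and 0.705 in untreated cells. This carrier of UDP-N-acetylglucosamine rose by 0.69 ± 0.09 (SE; adjusted p = 7.6e-05), with every LPS-treated library above the rest. The CMP-sialic acid carrier Slc35a1 (0.47) and the UDP-galactose carrier Slc35a2 (0.62) rose, and the GDP-fucose carrier Slc35c1 (-0.59), the carrier of the sulphate donor PAPS Slc35b2 (-0.66) and Slc35b4 (-0.44) fell.

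Carriers of organic acids and organic ions had 1 higher and 2 lower genes of 5. One of the lower genes, Slc16a7, entered the set through libraries without LPS only. Slc6a4 had 21.5, 19.9 and 20.1 FPKM in LPS+anti-CD36 cells, 20.2, 17.5 and 15.6 in LPS cells, 6.81, 6.77 and 7.75 in anti-CD36 cells and 6.91, 6.58 and 5.68 in untreated cells. Slc6a4, the serotonin carrier, rose by 1.34 ± 0.10 (SE; adjusted p = 5.6e-07) with no overlap, and its mean FPKM differed 2.78-fold. Slc16a12 measured 9.82, 10.9 and 11.1 FPKM in LPS+anti-CD36 cells, 10.3, 15.1 and 16.4 in LPS cells, 16.7, 21.1 and 18.4 in anti-CD36 cells and 20.9, 25.01 and 31.2 in untreated cells. Slc16a12 of the monocarboxylate family lay lower in every LPS-treated library, at -0.84 ± 0.17 (SE; adjusted p = 0.0014). Slc16a6 gave 12.3, 12.2 and 13.1 FPKM in LPS+anti-CD36 cells, 12.1, 15.6 and 14.3 in LPS cells, 10.9, 13.5 and 12.7 in anti-CD36 cells and 11.7, 12.8 and 15.02 in untreated cells. The groups of its relative Slc16a6 overlapped, at 0.08 (adjusted p = 0.57), and 23.5% of its exon bases are shared with the antisense gene Amz2.

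Of 3 vesicular and lysosomal carriers of organic anions, 1 rose and 1 fell. Slc17a6 had 5.95, 5.997 and 7.37 FPKM in LPS+anti-CD36 cells, 10.1, 13.5 and 16.3 in LPS cells, 4.1004, 4.197 and 4.31 in anti-CD36 cells and 4.29, 4.02 and 5.03 in untreated cells. Slc17a6, which loads glutamate into synaptic vesicles of neurons, rose by 1.37 ± 0.14 (SE; adjusted p = 7.9e-06), and the LPS cells were highest. Slc17a5 measured 3.44, 3.28 and 3.61 FPKM in LPS+anti-CD36 cells, 3.68, 4.53 and 4.31 in LPS cells, 5.92, 7.29 and 7.21 in anti-CD36 cells and 7.58, 8.22 and 8.41 in untreated cells. The lysosomal sialic acid exporter fell, at -0.81 ± 0.09 (SE; adjusted p = 1.9e-05), with every LPS-treated library below the rest. Slc17a9 stood at 4.05, 4.105 and 4.68 FPKM in LPS+anti-CD36 cells, 2.96, 2.81 and 3.16 in LPS cells, 3.65, 3.75 and 4.41 in anti-CD36 cells and 3.02, 4.26 and 3.65 in untreated cells. The vesicular nucleotide carrier overlapped between LPS and untreated cells, at -0.22 (adjusted p = 0.1).

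Both sodium-phosphate carriers passed the filter. Slc20a1 had 26.2, 27.2 and 27.7 FPKM in LPS+anti-CD36 cells, 21.3, 26.1 and 27.4 in LPS cells, 10.6, 14.4 and 12.3 in anti-CD36 cells and 10.8, 12.2 and 15.8 in untreated cells. Slc20a1 rose by 0.91 ± 0.14 (SE; adjusted p = 2.3e-04) without overlap. Slc20a2 measured 6.33, 5.48 and 5.43 FPKM in LPS+anti-CD36 cells, 5.79, 5.51 and 4.91 in LPS cells, 6.06, 6.096 and 6.46 in anti-CD36 cells and 5.56, 6.89 and 6.57 in untreated cells. Its partner Slc20a2 overlapped and did not pass, at -0.19 (adjusted p = 0.096). Of 4 calcium and magnesium carriers the magnesium carriers Slc41a2 and Slc41a1 (0.48) rose. Slc41a2 gave 4.17, 5.09 and 5.45 FPKM in LPS+anti-CD36 cells, 6.16, 7.25 and 7.75 in LPS cells, 2.74, 3.85 and 3.58 in anti-CD36 cells and 3.42, 4.03 and 4.36 in untreated cells. The rise of Slc41a2 was 0.71 ± 0.13 (SE; adjusted p = 6.3e-04), and LPS libraries stood above the other 3 groups. Slc8b1 had 8.98, 9.29 and 8.48 FPKM in LPS+anti-CD36 cells, 9.73, 9.23 and 8.55 in LPS cells, 9.04, 8.98 and 8.62 in anti-CD36 cells and 8.65, 9.75 and 8.92 in untreated cells. This mitochondrial sodium-calcium exchanger had a change of 0.01 (adjusted p = 0.93). Slc24a5 stood at 5.59, 4.604 and 4.32 FPKM in LPS+anti-CD36 cells, 5.24, 5.87 and 5.89 in LPS cells, 4.85, 4.47 and 4.72 in anti-CD36 cells and 5.898, 5.89 and 4.93 in untreated cells. For Slc24a5, a potassium-dependent sodium-calcium exchanger of melanosomes, the change was 0.02 (adjusted p = 0.87), and 39.5% of its exon bases are shared with the antisense gene Myef2.

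Of 15 carriers whose substrate is not settled, 1 rose and 5 fell. Slc35e4 had 16.3, 14.1 and 14.9 FPKM in LPS+anti-CD36 cells, 15.1, 11.9 and 10.1 in LPS cells, 28.8, 20.8 and 23.6 in anti-CD36 cells and 22.4, 21.5 and 17.1 in untreated cells. Slc35e4 fell in every LPS-treated library, at -0.68 ± 0.15 (SE; adjusted p = 0.003). Slc38a10 measured 14.7, 15.3 and 14.96 FPKM in LPS+anti-CD36 cells, 16.7, 15.5 and 13.4 in LPS cells, 22.2, 20.6 and 21.6 in anti-CD36 cells and 16.7, 18.1 and 16.8 in untreated cells. Slc38a10 did not pass between LPS and untreated cells (-0.17) and passed in antibody-treated cells (-0.49, adjusted p = 4.2e-04). Slc35e1 gave 15.4, 16.3 and 14.4 FPKM in LPS+anti-CD36 cells, 16.5, 13.7 and 12.8 in LPS cells, 17.1, 17.6 and 18.6 in anti-CD36 cells and 17.1, 18.3 and 15.8 in untreated cells. Slc35e1 passed in neither, at -0.24 and -0.20. The 1 that rose was Slc12a9 (0.54), a member of the cation-chloride family with no settled transport.

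Among the 4 proteins that carry no solute LPS raised 1. Slc9a3r2 had 13.01, 12.4 and 14.3 FPKM in LPS+anti-CD36 cells, 16.2, 12.2 and 11.3 in LPS cells, 5.38, 3.49 and 4.59 in anti-CD36 cells and 4.81, 4.16 and 3.34 in untreated cells. This scaffold rose by 1.48 ± 0.16 (SE; adjusted p = 1.1e-05) with no overlap, and its mean FPKM differed 3.23-fold. Slc9a3r1 measured 14.8, 13.4 and 13.7 FPKM in LPS+anti-CD36 cells, 13.7, 10.2 and 9.06 in LPS cells, 13.3, 10.6 and 10.7 in anti-CD36 cells and 11.9, 12.2 and 10.6 in untreated cells. Its relative Slc9a3r1, which binds the same exchangers, did not pass, at -0.09 (adjusted p = 0.62).

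In antibody-treated cells LPS gave a response of the same kind. Comparing LPS+anti-CD36 with anti-CD36 cells, 31 genes were higher and 44 lower, 61.0% of the 123, beside 47.5% of all genes (16.3% higher and 31.3% lower). With median-of-ratios scaling the split was 42 higher and 32 lower, and over all genes 21.9% were higher and 21.5% lower. Among the 118 genes at 1 FPKM both with and without LPS, 29 were higher and 41 lower. Of the 75 calls 22 were lost in at least 1 of 23 alternatives, Slc44a2 in 7. This comparison shares no library with that of LPS and untreated cells. The 63 carriers called in both had the same direction in all 63, which is 88.7% of the 71 calls without and 84.0% of the 75 calls with the antibody. Slc7a7, Slc39a4, Slc9b2, Slc16a7 and Slc26a6 are among the 63 and in the correlation below. They reached 1 FPKM only with or only without LPS, so their agreement cannot count in favour of any pattern. Over all genes 81.8% of the calls without the antibody were called the same way with it. Pearson's r of the 2 sets of changes was 0.96 across the carriers and 0.945 across all genes tested, as a description, since genes are not independent.

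The largest rises in the presence of the antibody were those of Slc15a3 at 4.05 ± 0.10 (SE; adjusted p = 2.9e-11), Slc31a2 at 2.14 ± 0.12 (SE; adjusted p = 4.1e-08) and Slc6a4 at 1.41 ± 0.10 (SE; adjusted p = 3.8e-07). Slc9a3r2 (1.39), Slc1a4 (1.29) and Slc12a4 (1.20) followed. The largest falls were those of Slc5a3 at -1.98 ± 0.29 (SE; adjusted p = 1.6e-04), Slc43a2 at -1.63 ± 0.07 (SE; adjusted p = 4.8e-09) and Slc6a8 at -1.29 ± 0.10 (SE; adjusted p = 5.9e-07). Slc44a1 (-1.25), Slc6a12 (-1.24) and Slc9b2 (-1.21) came next, of which Slc9b2 entered the set through libraries without LPS only. Osmolyte, creatine and choline carriers thus gave 4 of the 6 largest falls here and 3 of 6 without the antibody, by the same rule.

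**Figure D4:**
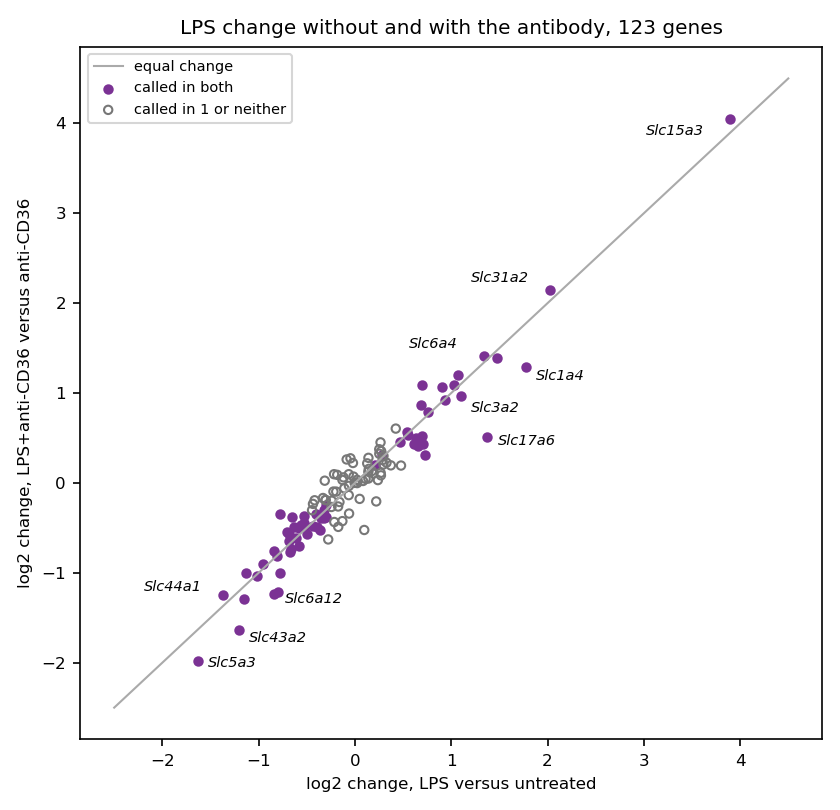
Log2 change of each of the 123 genes between LPS and untreated cells (horizontal) and between LPS+anti-CD36 and anti-CD36 cells (vertical), on log2(FPKM + 1). Filled points passed the test in both comparisons and the line marks equal change. All 63 filled points have the same sign in both, and Slc17a6 and Slc1a4 lie below the line.

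The antibody alone changed no carrier past the threshold in the model of the 4 group means, and the count depended on the model. Of the 123 genes 0 were called between anti-CD36 and untreated cells by limma, beside 0.341% of all genes (0.146% higher and 0.195% lower), and voom on recovered fragments also gave 0. With the trend on GC content and length removed 6 were higher and 2 lower, beside 4.19% of all genes called. With the replicate number added to the model 9 were higher and 9 lower, beside 11.3% of all genes. Both changes together gave 9 and 6, beside 9.86%. In the model of the 4 group means 30 had an unadjusted p under 0.05, and the smallest adjusted p was 0.104. The log2 changes ran from -0.86 for Slc5a3 to 0.49 for Slc50a1. Slc5a3 was also lower, and Slc50a1 also higher, in LPS+anti-CD36 than in LPS cells. The anti-CD36 and untreated libraries of each did not overlap, but both genes were picked as extremes of the 123 changes, so this carries no weight.

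In LPS-treated cells the antibody changed 20 of the 123 genes, 8 higher and 12 lower in LPS+anti-CD36 than in LPS cells. This is 16.3%, near the 15.5% of all genes (7.35% higher and 8.14% lower), so the number of carriers called is no result about carriers. Median-of-ratios scaling gave 7 higher and 17 lower, beside 16.8% of all genes, and TPM scaling 4 and 10, beside 11.2%. By class, amino acid carriers had 1 higher and 4 lower, vitamin and nucleoside carriers 2 higher and 1 lower, and no other class had more than 2 calls. By place, 2 of the 54 plasma membrane carriers were higher and 6 lower.

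Slc5a3 fell furthest, at -1.21 ± 0.29 (SE; adjusted p = 0.019), and its mean FPKM was 0.372 of that in LPS cells. The libraries given above did not overlap, and the call was lost without LPS replicate 2 or 3 or LPS+anti-CD36 replicate 1 or 2 (highest adjusted p 0.078). Slc17a6 came next, at -0.92 ± 0.14 (SE; adjusted p = 0.0017), and then the vitamin C carrier Slc23a2 at -0.64 ± 0.13 (SE; adjusted p = 0.0096). Neither group overlapped in them, and LPS+anti-CD36 libraries were lower in each. Slc38a2 (-0.58, adjusted p = 0.046), Slc37a4 (-0.53, adjusted p = 0.013) and Slc41a2 (-0.45, adjusted p = 0.035) also fell. Smaller falls were called in Slc43a2 (-0.36), Slc30a7 (-0.33), Slc35a5 (-0.32), Slc6a9 (-0.31), Slc45a4 (-0.24) and Slc1a4 (-0.23).

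Slc10a3 had 9.602, 10.3 and 8.51 FPKM in LPS+anti-CD36 cells, 7.52, 5.58 and 5.22 in LPS cells, 14.7, 11.7 and 14.8 in anti-CD36 cells and 11.4, 10.3 and 8.32 in untreated cells. Slc10a3, whose substrate is not settled, was the gene the antibody raised most in LPS cells, at 0.57 ± 0.14 (SE; adjusted p = 0.023). It shares 12.8% of its exon bases with Ubl4a on the same strand, which had 18.4, 19.4 and 17.2 FPKM in LPS+anti-CD36 cells and 16.0, 13.6 and 10.6 FPKM in LPS cells. Slc15a3 rose further, by 0.54 ± 0.10 (SE; adjusted p = 0.0055), and so did Slc29a2, by 0.51 ± 0.12 (SE; adjusted p = 0.019). Slc50a1 (0.50), Slc17a9 (0.41), Slc35d2 (0.39), Slc7a6os (0.35) and Slc5a6 (0.32) were the others. Slc7a6os measured 11.3, 11.8 and 10.9 FPKM in LPS+anti-CD36 cells, 8.82, 9.01 and 8.22 in LPS cells, 8.34, 9.51 and 9.87 in anti-CD36 cells and 8.26, 9.496 and 9.28 in untreated cells. The LPS+anti-CD36 libraries of this nuclear import factor stood above the other 9. Slc5a6 gave 3.57, 2.78 and 3.16 FPKM in LPS+anti-CD36 cells, 2.53, 2.099 and 2.37 in LPS cells, 4.16, 4.46 and 4.62 in anti-CD36 cells and 4.06, 4.48 and 4.13 in untreated cells. For Slc5a6 the LPS+anti-CD36 libraries lay between those of LPS cells and those without LPS.

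Antibody changes moved with the base composition of the transcript. Across 121 carriers with a known sequence, Spearman's rho between the antibody change and GC content was 0.53 in LPS-treated cells and 0.71 without LPS. Over all genes with a known sequence it was 0.37 and 0.55, so the trend is not particular to carriers. With gene model length it was -0.46 in both for the carriers, beside -0.50 and -0.51 over all genes. For the changes under LPS the rho with GC content was -0.01 without and -0.04 with the antibody, beside -0.07 and -0.11 over all genes. These are descriptions across genes that share libraries. The 2 antibody changes, which share no library, had a Pearson's r of 0.70 across the carriers and 0.682 across all genes, and 89 of the 123 had the same sign. With the trend on GC content and length removed from each library, 15 of the 20 calls held, Slc5a3 at -0.91 and Slc17a6 at -0.80 among them. The 5 lost were Slc35a5, Slc45a4, Slc17a9, Slc29a2 and Slc30a7. In that fit 17 carriers were higher and 18 lower in LPS+anti-CD36 than in LPS cells (28.5%), beside 24.5% of all genes, so the added calls came with added calls over all genes. The part that GC content and length have in the antibody results was not tested further.

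**Figure D5:**
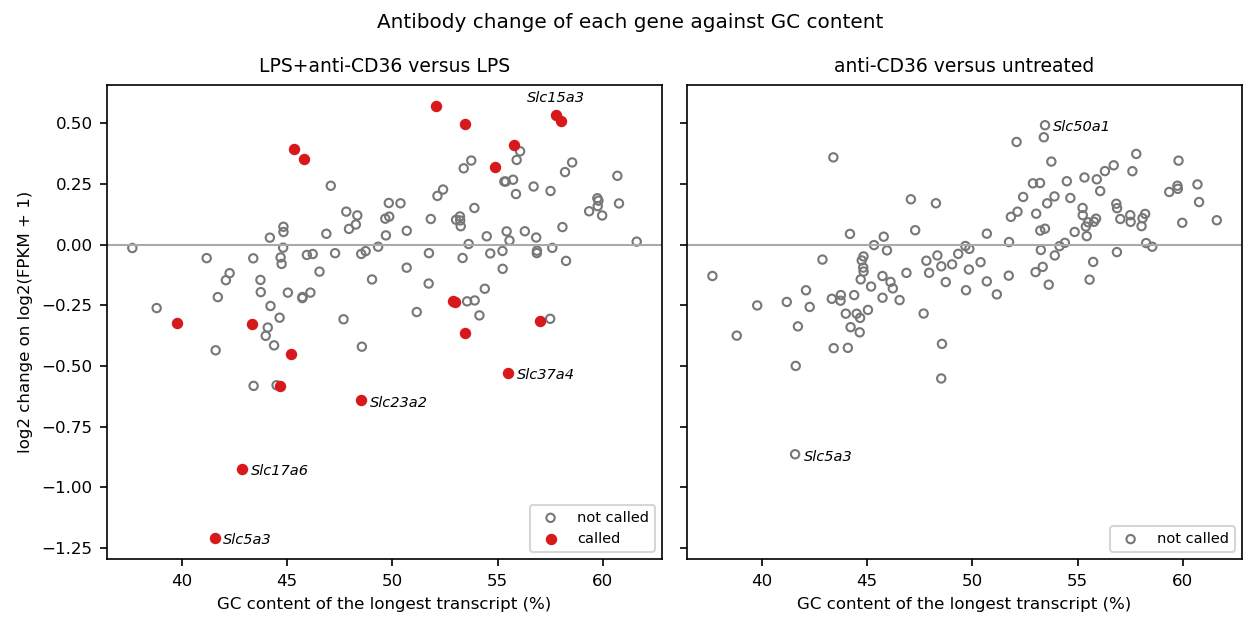
Log2 change of each of 121 genes between LPS+anti-CD36 and LPS cells (left) and between anti-CD36 and untreated cells (right), on log2(FPKM + 1), against GC content of the longest transcript in percent. Filled points passed the test, none of them on the right. Genes of low GC content lie lower in both panels, with a Spearman's rho of 0.53 on the left and 0.71 on the right. Over all genes with a known sequence the rho was 0.37 and 0.55.

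The count of antibody calls in LPS cells also rested on single libraries, as did that over all genes. It was 22 higher and 21 lower without LPS replicate 1, beside 38.7% of all genes. Without LPS replicate 2 it was 2 and 4, and without LPS replicate 3 it was 3 and 7, beside 5.70% and 7.24% of all genes. Without LPS+anti-CD36 replicate 1, 2 or 3 it was 2 and 4, 3 and 3, and 3 and 6, beside 6.23%, 5.75% and 8.26% of all genes. Slc15a3, Slc17a6, Slc23a2 and Slc43a2 were called in each of the 23 alternatives. In the 12 fits that left out a library Slc38a2 and Slc1a4 each lost the call in 9, Slc45a4, Slc50a1 and Slc30a7 each in 8, Slc41a2 in 6, Slc35a5 in 5 and the other 9 genes in 2 to 4.

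In the main fit the LPS change differed with and without the antibody in 1 carrier. Slc1a4 rose by 1.29 with the antibody and by 1.78 without it, a difference of -0.49 ± 0.10 (SE; adjusted p = 0.037). This is 0.813% of the carriers, beside 1.28% of all genes (0.496% higher and 0.788% lower), and 11 carriers had an unadjusted p under 0.05. In the FPKM values given above, Slc1a4 was lower in LPS+anti-CD36 than in LPS cells and higher in anti-CD36 than in untreated cells, without overlap in either pair. The adjusted p ran from 0.054 to 0.13 when any 1 library was left out, so the call needs all 12. Slc17a6 had the next smallest p, with a difference of -0.86 ± 0.20 (SE; adjusted p = 0.074). Without LPS replicate 1 it was -1.03 (adjusted p = 0.0043), and Slc17a6 was then the single call. Slc43a2 (-0.43, adjusted p = 0.076) and Slc6a9 (-0.42, adjusted p = 0.14) followed with the same sign. In the other direction none passed, with Slc35d2 at 0.39, Slc29a2 at 0.43, Slc7a6os at 0.32 and Slc5a6 at 0.27.

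For comparison, 33 carriers of the mitochondrial Slc25 family passed the same filter, of which LPS raised 4 and lowered 13, with a median of -0.18. Their share called was 51.5%, near the 49.8% of all genes (16.6% higher and 33.1% lower, median -0.14). Of the 12 carriers left out by name 10 passed, and LPS raised 7 and lowered 1, or 80% called. The difference between these groups and the 123 was not tested.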

How the data were processed

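RNA of 12 RAW264.7 libraries was analysed from 1 table of FPKM values, computed and deposited by the authors. The submitters' processing notes name HISAT2 2.0.5 and the builds mm39 and hg38 without roles. The counter, annotation and strand setting are not given in the sources used here. Depth was recovered from the FPKM steps at GENCODE M21 (GRCm38) exon-union lengths, and 91.9% of 18167 entries above 0 were whole fragments in every library (tolerance 0.005). Positions are those of GENCODE M21, and promoters those of RefSeq.

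Values were tested as log2(FPKM + 1) in limma 3.58.1 (R 4.3.3, intensity trend), over genes that reached 1 FPKM in 3 or more of the 12 libraries. One model held the 4 group means. Benjamini-Hochberg adjustment ran over all genes tested, with calls at an adjusted p under 0.05. Il6 was left out of every comparison but LPS+anti-CD36 against LPS, since its values elsewhere repeat another entry. The code was tested on simulated data.

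Full values went to the 6 largest called rises and falls of each comparison without overlap and with a higher mean of at least 2 FPKM, to the 3 highest genes of each class, and to up to 4 genes of smallest p per direction in the interaction. Alternatives were other pseudocounts, filters and scalings, voom on recovered fragments, removal of a GC and length trend (splines of 4 degrees of freedom), a replicate block and leaving out each library. Substrate classes and places were assigned from general knowledge. A few genes that enter the counts are not reported here by name. The members and lists were chosen with earlier results of these data known.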

Additional observations from a re-analysis of the deposited data

Results flagged for a closer look

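1 result met a rule for a closer look, because the LPS change differed between cells with and without the antibody by a test of the difference itself. For Slc1a4, the alanine, serine and cysteine exchanger, the LPS change with the antibody minus that without was -0.49 on the log2 scale (limma interaction, adjusted p = 0.037). The gene had 7.84, 8.08 and 7.31 FPKM in LPS+anti-CD36 cells, 9.67, 9.18 and 8.99 in LPS cells, 2.45, 2.71 and 2.57 in anti-CD36 cells and 1.86, 2.14 and 2.01 in untreated cells. Of 22 alternatives, 8 kept the call and 14 did not, with the same sign in all 22. The 14 were the 12 that left out a library (adjusted p 0.054 to 0.13), TPM scaling (0.061) and voom on recovered fragments (0.062). With the GC and length trend removed the adjusted p was 0.0046.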

How the results depend on the processing

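Over 23 alternatives no called carrier changed sign, and 52 of the 71 calls between LPS and untreated cells, 51 of the 75 between LPS+anti-CD36 and anti-CD36 cells and 4 of the 20 between LPS+anti-CD36 and LPS cells held in every one. A further 1 and 2 calls of the LPS comparisons held in the 22 alternatives that gave them a value, voom on recovered fragments giving none. In order of higher and lower, counts from leaving out 1 library ran from 25 to 34 and 33 to 44 for LPS against untreated cells. They ran from 23 to 35 and 37 to 47 for LPS+anti-CD36 against anti-CD36, from 2 to 22 and 3 to 21 for LPS+anti-CD36 against LPS, and from 0 to 1 and 0 to 0 for anti-CD36 against untreated cells. In the interaction they were 0 to 0 higher and 0 to 1 lower. For LPS+anti-CD36 against LPS, no filter gave 5 and 7 (beside 6.95% of all genes) and TPM scaling 4 and 10 (11.2%). Removal of the GC and length trend gave 17 and 18 (24.5%), and a fit of those groups alone 6 and 5 (9.15%). With that GC and length trend removed there were 6 and 2 for anti-CD36 against untreated cells (4.19%). Both LPS responses then had 45 and 42 (59.9% without and 57.8% with the antibody), and the interaction 5 lower (3.93%). The interaction had 2 lower with a pseudocount of 0.1 (0.856%) and 3 with median-of-ratios scaling (1.35%). Same-numbered libraries deviated together by correlations of 0.45 to 0.78 for number 1, -0.32 to 0.43 for number 2 and -0.07 to 0.81 for number 3. These mixed values do not settle whether the numbers pair libraries, and the labels do not say. A replicate block gave 9 and 9 calls for anti-CD36 against untreated cells, 19 and 25 for LPS+anti-CD36 against LPS, and 3 lower in the interaction (beside 2.06% of all genes). Over all genes the block called 11.3% and 35.5% in the antibody comparisons, near the carriers' 14.6% and 35.8%. With the block added and the trend removed the counts were 9 and 6 (beside 9.86% of all genes), 23 and 23 (35.4%), and 7 lower in the interaction (5.39%). The LPS responses then had 49 and 44 without the antibody (66.0%) and 49 and 43 with it (64.6%). The cause of these shifts was not tested. The GC and length check covers 10093 of 10277 genes. At the lowest depth 1 FPKM on 2000 bases rests on 60.1 fragments, which limits the members nearest the filter.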
